A study of Mus musculus with 16 samples.

Results

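Cytosolic ribosomal proteins, together with the ribosomal RNAs, build the large (60S) and small (40S) subunits of the ribosome, the machine that translates every nuclear-encoded mRNA. Their mRNAs belong to the TOP class, named for a terminal oligopyrimidine run at the 5′ end through which the mTORC1 kinase pathway and the protein LARP1 set their translation. In neurons, where much protein is made far from the cell body, ribosomal protein mRNAs are among the abundant mRNAs of axons and dendrites. Members were taken by symbol from the gene tables: rows that begin with Rpl or Rps and a digit, together with Rplp0, Rplp1, Rplp2 and Rpsa, and without rows ending in -ps, the Rps6k kinases and Rps19bp1. Of 24421 genes, 87 rows met this rule, and 85 of them had a read in at least 1 library. Rpl10l and Rps27rt were listed at 0 in all 12 libraries. The 85 members are 43 proteins of the 60S subunit, 31 of the 40S subunit, the 3 P stalk proteins and 8 paralogues, which are close relatives of another member (Rpl3l, Rpl7l1, Rpl22l1, Rpl36al, Rpl37rt, Rpl39l, Rps4l and Rps27l).

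RNA of the somatosensory cortex was sequenced in 4 groups, with 3 mice of each analysed here. They were undisturbed wild-type mice (CTL-WT), wild-type mice after sleep disruption (SD-WT), undisturbed AcPb-/- mice (CTL-AcPbKO) and AcPb-/- mice after sleep disruption (SD-AcPbKO). All mice of the 4 groups were labelled C57BL/6 and male, 2 to 3 months old, and were collected at ZT4, ZT being hours after light onset. The methods give the substrain of the wild-type mice as C57BL/6J. SD was gentle handling for 8 h, from ZT20 to ZT4, and controls were left undisturbed. AcPb-/- mice are homozygous for loss of AcPb, the neuron-specific isoform of the IL1 receptor accessory protein, and no further allele or agent is given for any group. AcPb is 1 isoform of the gene Il1rap, so a count over the whole gene does not check the knockout, and normalized Il1rap counts were 1476 to 1520 in CTL-WT and 1515 to 1647 in CTL-AcPbKO libraries. Values are read counts per gene divided by a size factor of the library, called normalized counts here, and tests compare log2(normalized count + 1) with limma across all genes with a read, so that log2 fold changes are on that scale and errors are standard errors (SE) unless named as a standard deviation. SD stands for sleep disruption throughout.

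The libraries differed in ways that touch the comparisons. Controls held 26504840 to 41615582 reads on genes and SD libraries 58770286 to 71857505. Xist, the RNA of the inactive X chromosome of female cells, had 25352 to 39358 reads in 4 control libraries (CTL-WT replicates 2 and 3, CTL-AcPbKO replicates 4 and 5), which had at most 2 reads on 4 Y-linked genes, while the other 8 libraries had at most 13 Xist reads. These 4 libraries go against the label male. Counts of members and the differences of the members that carry the results are given with and without them. Values without them are from a fit of the other 8 libraries, called the Xist-free fit. In it each genotype has 1 control, which is assumed to vary like the libraries of the other groups. Genes of the lists beside the members are given only with the 4 libraries kept. Choroid plexus markers, summed over 8 genes, reached 18358 in SD-AcPbKO replicate 4 against 335 to 637 in the other 11 libraries. Neuronal markers (10 of 10 genes with reads) summed to between 413970 and 480400 in every library, so the tissue held the neurons its label implies.

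A few 5′ ends of members that rose, fell or passed in neither genotype are printed as examples. Each line gives 10 bases before and 20 bases from the RefSeq start (GRCm38.p6, written along the transcribed strand), with the first run of a C followed by at least 4 pyrimidines within 10 bases of the start in capitals, for the first listed start of the gene. The first 4 genes were higher after SD in both genotypes, the next 4 were lower in both, and the last pair passed the threshold in neither.
Rps24 (chr14:24490668-24490697, plus strand): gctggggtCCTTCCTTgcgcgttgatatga
Rps6 (chr4:86857348-86857377, minus strand): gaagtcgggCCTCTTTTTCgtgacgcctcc
Rps26 (chr10:128626487-128626516, minus strand): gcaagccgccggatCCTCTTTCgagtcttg
Rpl36al (chr12:69184048-69184077, minus strand): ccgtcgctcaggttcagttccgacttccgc
Rpl38 (chr11:114668570-114668599, plus strand): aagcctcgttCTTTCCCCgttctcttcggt
Rps21 (chr2:180257369-180257398, plus strand): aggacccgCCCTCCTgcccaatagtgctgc
Rpl22l1 (chr3:28805498-28805527, plus strand): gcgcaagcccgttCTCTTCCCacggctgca
Rplp2 (chr7:141447641-141447670, plus strand): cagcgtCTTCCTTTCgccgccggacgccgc
Rplp0 (chr5:115559457-115559486, plus strand): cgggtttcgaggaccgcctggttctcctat
Rps3 (chr7:99483690-99483719, minus strand): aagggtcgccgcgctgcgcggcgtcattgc

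Such a run stood in 40 of 76 start windows of the 64 members matched by symbol (52.6%), against 30.7% of all 32851 windows. The start base itself was a C followed by at least 4 pyrimidines, whether or not the run began before it, in 17.1% of member windows and in 2.51% of all. Windows of members lower after SD in both genotypes held the run in 11 of 19. Those of members higher in both held it in 6 of 9, and those of members past in neither in 18 of 34 (52.9%). The run was thus present in every class, and the last pair printed, without a run, does not stand for its class. In the whole window of 250 bases before and 50 after the start, CCGGAAG, the core of ETS family sites, was found on either strand in 35.5% of member windows and 8.86% of all. ATGGCG, a YY1 core, was found in 30.3% and 8.93%. TATAAA in the 50 bases before the start was found in 1.32% and 2.63%. These matches are descriptions of letters in RefSeq windows, 21 members had no window, and overlaps between motifs were not removed.

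The members took a smaller share of reads after SD in 5 of 6 SD libraries. Shares of all reads on genes were 0.828%, 0.879% and 0.868% in CTL-WT and 0.780%, 0.763% and 0.873% in SD-WT replicates 1, 2 and 4. They were 0.858%, 0.842% and 0.853% in CTL-AcPbKO and 0.680%, 0.809% and 0.771% in SD-AcPbKO replicates 2, 3 and 4. SD-WT replicate 4 lay among the controls, and SD-AcPbKO replicate 2 was the lowest of all. The 95% Wilson intervals of these shares reached at most 0.00348 percentage points to either side and cover counting error only. As a score over chosen genes the share was not tested. Over the 73 core members with a mean of at least 1000 normalized counts, 9 were above their own 12-library mean in SD-AcPbKO replicate 2, against 22 and 29 in the other SD-AcPbKO libraries and 63 in SD-WT replicate 4. In tissue RNA, fewer cells of a type and less RNA per cell cannot be told apart.

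**Figure D1:**
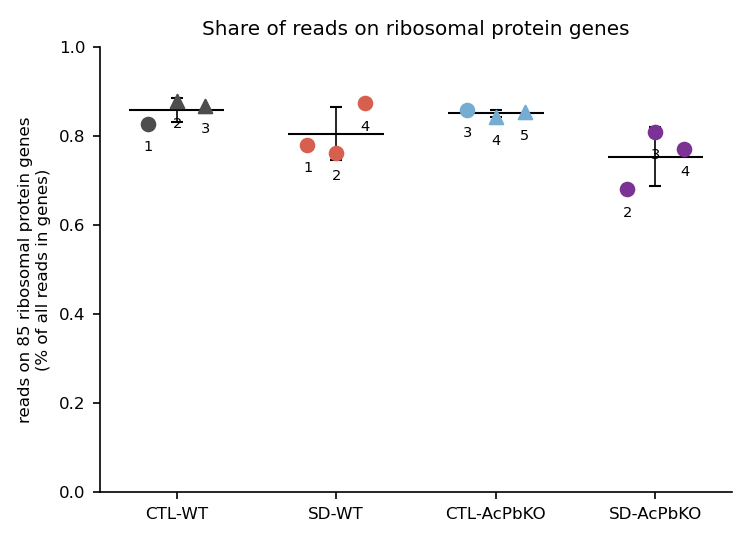
Reads on the 85 ribosomal protein genes as a percentage of all reads on genes (vertical axis, from 0) in each library of the 4 groups, with replicate numbers below the points. Lines are group means, bars are standard deviations (n = 3) and triangles are libraries with Xist reads. SD-WT replicate 4 (0.873%) sits at the level of the controls and SD-AcPbKO replicate 2 (0.680%) below all others.

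Sleep disruption in wild-type mice moved ribosomal protein genes in both directions. Past the threshold (adjusted p under 0.05, Benjamini-Hochberg over 20417 genes) were 34 of 85 members, 12 higher and 22 lower. Over all genes 25.4% were called, 13.2% higher and 12.2% lower, and 40.2% had groups that did not overlap, which held for 51 members (27 higher and 24 lower, against 20.5% and 19.7% of all genes). The median log2 fold change of the members was -0.03 and that of all genes tested was -0.00389. Leaving out SD-WT replicate 4 raised the count to 48 (12 higher, 36 lower), with 30.7% of all genes called. Leaving out SD-WT replicate 2 lowered it to 24, with 14% of all genes called, and turned the median to 0.012. With each library's trend with transcript length and GC content removed, 37 members passed, 17 higher and 20 lower, and 25.7% of all genes.

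In AcPb-/- mice SD called 44 of 84 members tested, 11 higher and 33 lower. Over all 20574 genes 27.4% were called, 14.1% higher and 13.3% lower. Groups did not overlap for 53 members, 13 higher and 40 lower, against 42.3% of all genes (21.7% higher and 20.7% lower). The median of the members was -0.11, and that of all genes tested 0.0138. Both SD comparisons rest on different libraries. Over the 84 members tested in both, 22 were past the threshold and lower in both genotypes, 9 were past and higher in both, and 0 were past in opposite directions. Another 3 passed in wild-type only (Rpsa, Rpl37 and Rpl29, all higher), 13 passed in AcPb-/- only (11 lower, 2 higher), and 37 passed in neither. Of the wild-type calls, 91.18% among members and 74.64% among all genes also passed in AcPb-/- mice. Of the AcPb-/- calls, 70.45% among members and 68.72% among all genes also passed in wild-type. The call in 1 genotype alone does not show a difference between them, which is tested further on. The log2 fold changes had Pearson r 0.876 and Spearman rho 0.906 over these 84 members, and 0.821 and 0.831 over genes with a mean of at least 10. Members share libraries and depth, so these are descriptions.

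**Figure D2:**
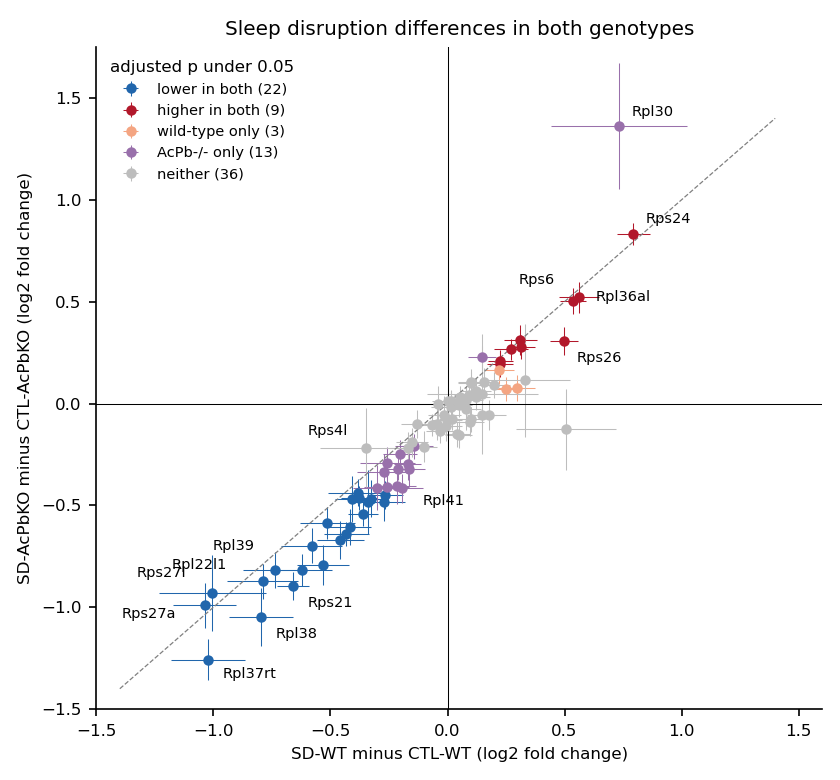
Log2 fold change after SD in wild-type (horizontal axis) against AcPb-/- mice (vertical axis) for the 83 members with a mean of at least 10, with bars of 1 SE and the dashed line of equal change. Colours give where the adjusted p was under 0.05. The 22 genes lower in both lie at the lower left and the 9 higher in both at the upper right.

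Without the libraries that have Xist reads, fewer members passed, as did fewer of all genes. In a fit of all 12 libraries with a term for Xist reads, 28 members passed in wild-type (13 higher, 15 lower), beside 19.3% of all genes, and 35 in AcPb-/- mice (9 higher, 26 lower), beside 24.7%. In the Xist-free fit, 7 members passed in wild-type (6 higher, 1 lower), beside 3.27% of all genes, and 9 in AcPb-/- mice (6 higher, 3 lower), beside 10%. The 34 wild-type and 44 AcPb-/- calls had the same sign in both of these fits, which share the SD libraries and a control of each genotype with the fits that made the calls. Depth moved with SD, and with every library thinned to the smallest total 32 and 43 members passed, beside 22.1% and 25.2% of all genes. With all libraries kept, 12.2% of all genes were lower in wild-type and 13.3% in AcPb-/- mice. Of cell type markers, 7 of 10 oligodendrocyte genes were lower in wild-type and 2 (Opalin, Cnp) in AcPb-/- mice. Their sum ran from 113230 to 144540 in CTL-WT, 90931 to 124590 in SD-WT, 57265 to 131570 in CTL-AcPbKO and 72968 to 109540 in SD-AcPbKO. Of 10 microglial genes, 2 were lower and 1 higher in wild-type (Trem2, Aif1; C1qb) and 5 were lower in AcPb-/- mice. Their sum was 19678 to 20897, 18248 to 19858, 19018 to 19908 and 14356 to 17195 in the same order of groups. The part of these cells in the ribosomal protein results was not tested.

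**Figure D3:**
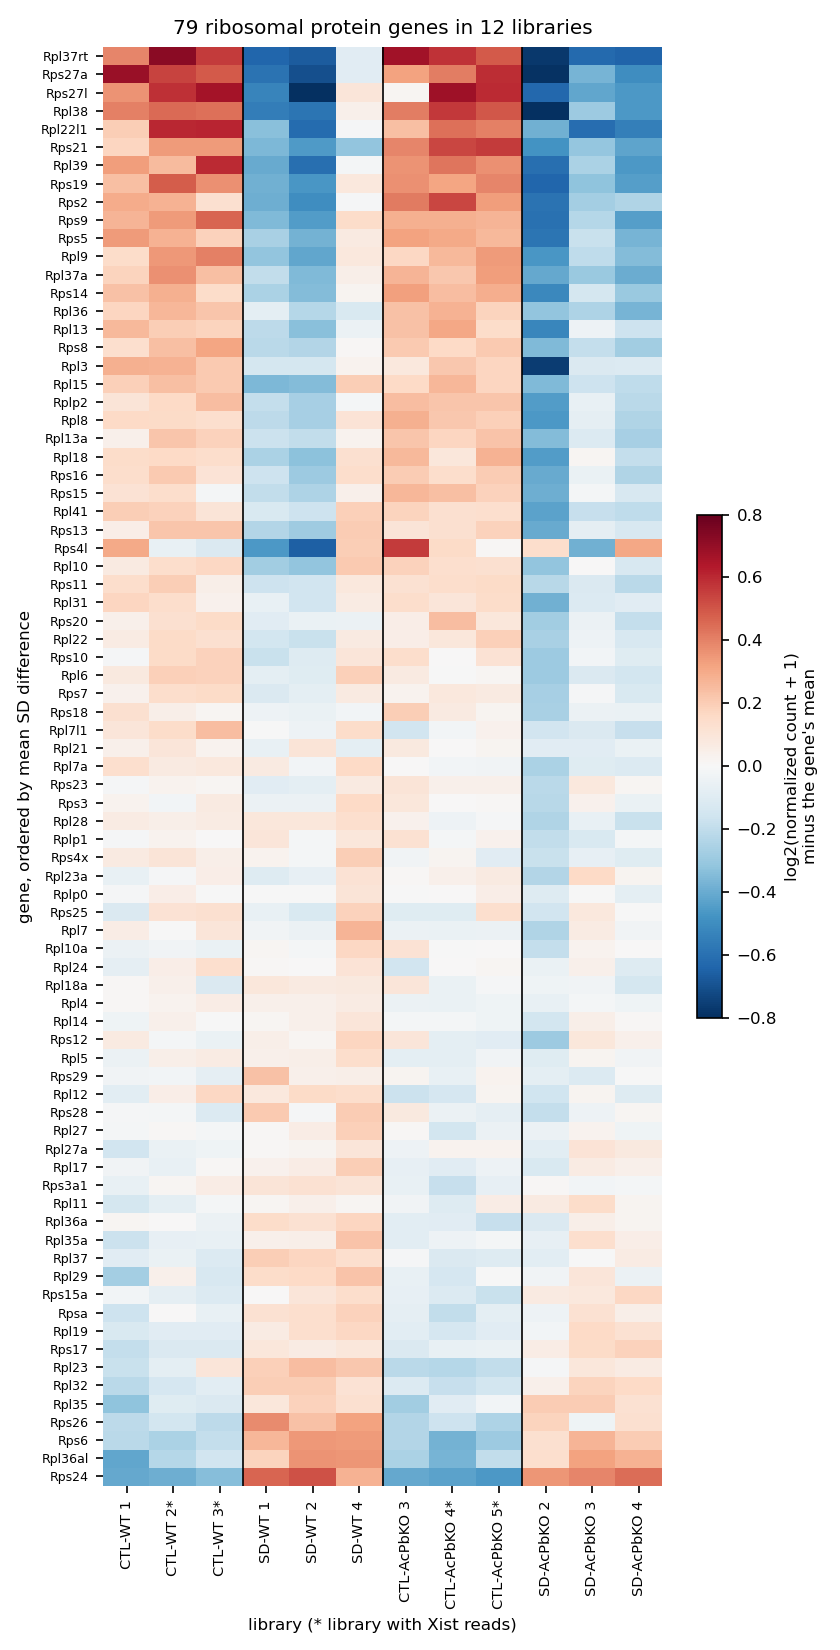
Log2(normalized count + 1) minus the gene's 12-library mean (colour, red above and blue below) for the 79 members with a mean of at least 100 (rows, ordered by their mean SD difference) in the 12 libraries (columns, * with Xist reads). Genes at the top are mostly red in the 6 controls and mostly blue after SD, with SD-WT replicate 4 paler, and Rps24, Rpl36al, Rps6 and Rps26 at the bottom show the reverse.

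Rps24, a 40S protein needed for processing of the 18S ribosomal RNA precursor, rose the most of the abundant members. Normalized counts, over the 12 libraries normalized together, were 7791, 7898 and 8171 in CTL-WT and 14259, 14708 and 12514 in SD-WT. They were 7771, 7670 and 7522 in CTL-AcPbKO and 13206, 13540 and 14117 in SD-AcPbKO. All SD libraries lay far above all controls. The log2 fold change was 0.79 ± 0.07 (adjusted p = 0.000178, limma) in wild-type and 0.83 ± 0.05 (adjusted p = 0.000444) in AcPb-/- mice. The Xist-free fit gave 0.82 (adjusted p = 0.0431) and 0.81 (adjusted p = 0.0237).

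Rps6 encodes the 40S protein whose phosphorylation by the S6 kinases, not measured here, is the usual readout of mTORC1 activity. Its mRNA rose as well. CTL-WT counts were 5203, 5078 and 5302 and SD-WT counts 7274, 7696 and 7649. CTL-AcPbKO counts were 5141, 4638 and 4937 and SD-AcPbKO counts 6593, 7279 and 6959. Again no SD library overlapped a control. The log2 fold changes were 0.54 ± 0.06 (adjusted p = 0.000296) and 0.50 ± 0.06 (adjusted p = 0.00121). In the Xist-free fit they were 0.53 (adjusted p = 0.0431) and 0.43 (adjusted p = 0.027). Of its transcript, 83.6% of 100-base stretches also occur in transcripts of other annotated genes, pseudogene rows among them, so reads of these copies may be counted with it or left out.

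Rps26 lines the channel through which mRNA leaves the 40S subunit and is mutated in Diamond-Blackfan anaemia. Its counts were 2294, 2389 and 2294 in CTL-WT and 3441, 3121 and 3315 in SD-WT. In AcPb-/- mice they were 2253, 2362 and 2234 undisturbed and 2990, 2582 and 2893 after SD. Every SD library was above every control. The log2 fold change was 0.50 ± 0.06 in wild-type (adjusted p = 0.000628) and 0.31 ± 0.07 in AcPb-/- mice (adjusted p = 0.0126, and 0.0517 and 0.0532 without SD-AcPbKO replicates 2 and 4). Both calls were lost in the Xist-free fit, at 0.52 (adjusted p = 0.0531) and 0.32 (adjusted p = 0.0924).

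Rps27a encodes a fusion of ubiquitin with a 40S protein and fell the most of the abundant members in wild-type mice. Counts were 4752, 4280 and 4141 in CTL-WT and 1951, 1807 and 2761 in SD-WT. They were 3671, 3916 and 4426 in CTL-AcPbKO and 1704, 2272 and 2087 in SD-AcPbKO. The groups did not overlap, and SD-WT replicate 4 was the closest to the controls. The log2 fold change was -1.04 ± 0.13 (adjusted p = 0.00083) in wild-type and -0.99 ± 0.11 (adjusted p = 0.000938) in AcPb-/- mice. The Xist-free fit kept neither call, with -1.15 (adjusted p = 0.0707) and -0.87 (adjusted p = 0.0897).

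Rps21, a small 40S protein near the mRNA exit, had no 100-base stretch in common with another annotated gene. It was at 3465, 3893 and 3895 in CTL-WT and at 2402, 2243 and 2475 in SD-WT. It was at 4040, 4457 and 4531 in CTL-AcPbKO and at 2206, 2479 and 2292 in SD-AcPbKO. Here SD-WT replicate 4 lay with the other SD libraries. The log2 fold change was -0.66 ± 0.07 (adjusted p = 0.000301) and -0.90 ± 0.07 (adjusted p = 0.000444). Both calls were kept in the Xist-free fit, at -0.55 (adjusted p = 0.0458) and -0.80 (adjusted p = 0.0232).

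Other 40S members named for their role divided between falls and no call. Rps19, which is mutated in Diamond-Blackfan anaemia, fell from 3925 ± 327 to 2584 ± 561 (standard deviation, n = 3) in wild-type and from 3890 ± 103 to 2209 ± 234 in AcPb-/- mice, by 0.62 ± 0.13 and 0.82 ± 0.08 on the log2 scale. Rps14, which contacts the mRNA on the platform of the 40S subunit, fell by 0.42 ± 0.09 and 0.60 ± 0.09. Neither gene passed in the Xist-free fit, with values of -0.50 (adjusted p = 0.238) and -0.83 (adjusted p = 0.0752) for Rps19 and of -0.43 (adjusted p = 0.216) and -0.65 (adjusted p = 0.0798) for Rps14. Rpsa, the protein also known as the laminin receptor, rose by 0.22 ± 0.06 in wild-type mice (adjusted p = 0.0267), a call that was lost without any of CTL-WT replicates 1 or 3 or SD-WT replicates 1 or 2 (adjusted p up to 0.0797) and in the Xist-free fit (adjusted p = 0.078). In AcPb-/- mice its difference was 0.16 ± 0.07 (adjusted p = 0.101). Rps3, at the mRNA entry, had differences of -0.01 ± 0.07 and -0.11 ± 0.07, with 95% intervals of -0.16 to 0.15 and -0.28 to 0.05. Rps25, which viral internal ribosome entry sites need, had intervals of -0.24 to 0.16 and -0.19 to 0.19. Rps4x, on the X chromosome, had intervals of -0.15 to 0.14 and -0.21 to 0.05.

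**Figure D4:**
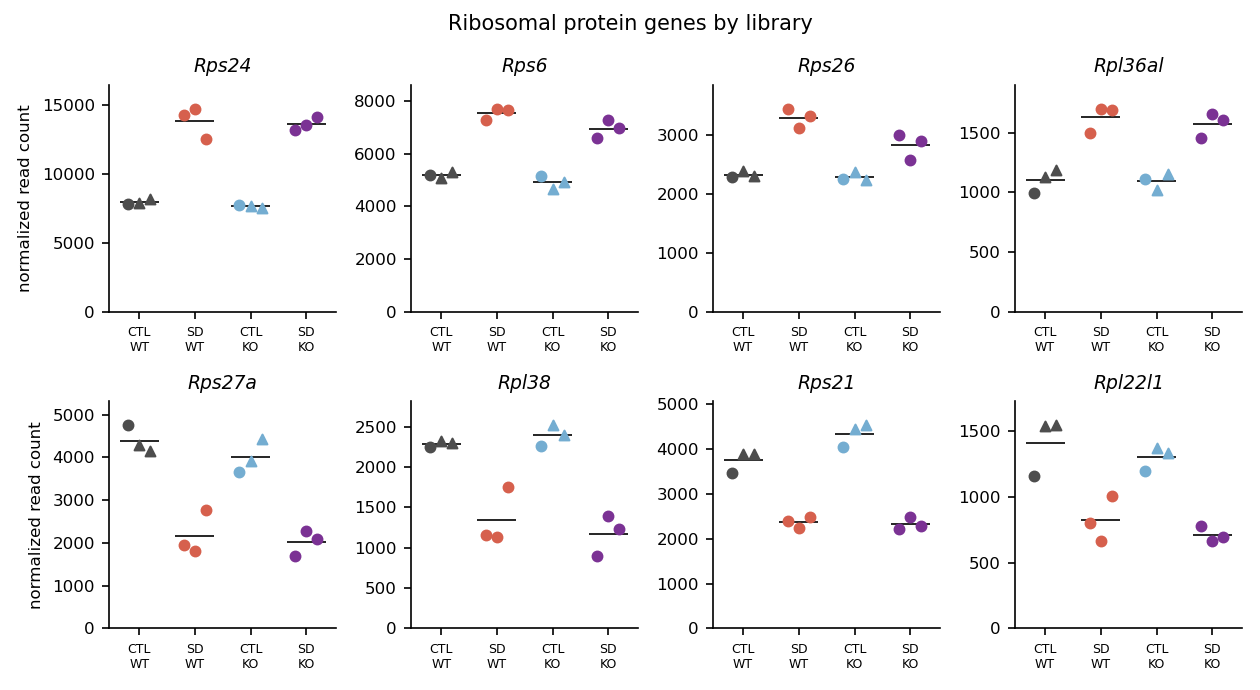
Normalized counts (vertical axes, from 0) of 4 members that rose (upper row) and 4 that fell (lower row) in every library of CTL-WT, SD-WT, CTL-AcPbKO (CTL KO) and SD-AcPbKO (SD KO). Lines are group means (n = 3) and triangles are libraries with Xist reads. No SD library of these 8 genes overlaps a control of its genotype. The genes were picked by their calls in these same libraries. Groups did not overlap for 40.2% of all genes in wild-type and 42.3% in AcPb-/- mice.

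Among 60S members Rpl38, which is needed for translation of a set of Hox mRNAs in the embryo, fell the most of the core proteins. Its counts were 2248, 2327 and 2303 in CTL-WT and 1161, 1134 and 1747 in SD-WT. They were 2261, 2518 and 2403 in CTL-AcPbKO and 892, 1393 and 1237 in SD-AcPbKO. The spread after SD was wide, with SD-WT replicate 4 high and SD-AcPbKO replicate 2 low. The log2 fold change was -0.80 ± 0.14 (adjusted p = 0.00303) and -1.05 ± 0.14 (adjusted p = 0.00166). In the Xist-free fit it was -0.77 (adjusted p = 0.21) and -0.97 (adjusted p = 0.112), so that both calls were lost while the sizes stayed close. Rpl3, a protein of the peptidyl transferase centre, was at 16375, 16319 and 15523 in CTL-WT and 12187, 12214 and 13716 in SD-WT, a fall by 0.34 ± 0.07 (adjusted p = 0.00477, 0.211 with a term for Xist reads and 0.431 in the Xist-free fit). In AcPb-/- mice it was at 14267, 15598 and 15174 undisturbed and at 7931, 12406 and 12458 after SD, where SD-AcPbKO replicate 2 stood apart, and the adjusted p of 0.0498 became 0.142 without CTL-AcPbKO replicate 4, 0.101 without replicate 5, 0.0624 without replicate 3 and 0.345 in the Xist-free fit.

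Rpl32, with no shared stretch, rose by 0.31 ± 0.06 and 0.28 ± 0.06 on the log2 scale, from 4229 ± 195 to 5261 ± 169 (standard deviation, n = 3) in wild-type and from 4219 ± 110 to 5101 ± 260 in AcPb-/- mice, with adjusted p of 0.0531 and 0.097 in the Xist-free fit. Rpl35 rose by 0.31 ± 0.07 in both genotypes, with an adjusted p of 0.0542 without SD-WT replicate 2 and of 0.0629 without SD-AcPbKO replicate 2, and of 0.044 and 0.0251 in the Xist-free fit. Rpl23, which binds Mdm2, rose by 0.27 ± 0.07 (adjusted p = 0.0214) and 0.27 ± 0.05 (adjusted p = 0.00761), the wild-type call being lost without CTL-WT replicates 1 or 2 or SD-WT replicates 1 or 2 (adjusted p up to 0.0861), while the Xist-free fit gave 0.40 (adjusted p = 0.044) and 0.27 (adjusted p = 0.0478). Rpl5 and Rpl11 form the 5S particle of the 60S subunit and, free of the ribosome, inhibit Mdm2. Neither passed, with log2 differences of 0.05 ± 0.06 and 0.03 ± 0.05 for Rpl5 and of 0.10 ± 0.06 and 0.11 ± 0.06 for Rpl11.

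Rpl10, an X-linked protein added late in 60S assembly, was at 5901, 6193 and 6305 in CTL-WT and 4618, 4515 and 6489 in SD-WT, so that SD-WT replicate 4 lay above the controls. The adjusted p of 0.142 became 0.00051 without that library. In AcPb-/- mice Rpl10 fell by 0.29 ± 0.08 (adjusted p = 0.0275), which was lost when any of the CTL-AcPbKO libraries or SD-AcPbKO replicates 2 or 4 was left out (adjusted p up to 0.0785), and in the Xist-free fit (adjusted p = 0.381). Rpl41, the shortest of the ribosomal proteins, was at 7334, 7279 and 6874 in CTL-WT and 5886, 5704 and 7312 in SD-WT, where replicate 4 lay among the controls (adjusted p = 0.138, and 0.00253 without that library), and fell by 0.42 ± 0.07 in AcPb-/- mice (adjusted p = 0.00409, and 0.134 in the Xist-free fit).

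The P stalk recruits the translation factors that drive elongation and is made of Rplp0 with dimers of Rplp1 and Rplp2. Only Rplp2 passed the test, by -0.33 ± 0.07 in wild-type (adjusted p = 0.0104, 0.053 without SD-WT replicate 2, 0.0777 with a term for Xist reads and 0.376 in the Xist-free fit) and -0.47 ± 0.09 in AcPb-/- mice (adjusted p = 0.00672, and 0.111 in the Xist-free fit). Its counts were 3553, 3702 and 3933 in CTL-WT and 2906, 2754 and 3275 in SD-WT. They were 3929, 3865 and 3867 in CTL-AcPbKO and 2428, 3186 and 2850 in SD-AcPbKO. Rplp1, the highest member per kilobase of transcript (25116 normalized counts per kilobase, against 20740 for Rps24 and 18758 for Rps29), differed by 0.05 ± 0.06 and -0.15 ± 0.07. With the trends with length and GC content removed, Rplp1 passed in wild-type mice, higher by 0.19 (adjusted p = 0.019, limma). Rplp0, a common reference gene in quantitative PCR, differed by 0.02 ± 0.06 and -0.08 ± 0.05, with intervals of -0.11 to 0.15 and -0.20 to 0.05.

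Paralogues are given beside the genes they resemble. Rpl36al was at 991, 1130 and 1188 in CTL-WT and 1497, 1700 and 1688 in SD-WT, and at 1112, 1021 and 1156 in CTL-AcPbKO and 1455, 1653 and 1605 in SD-AcPbKO. It rose by 0.56 ± 0.09 (adjusted p = 0.00165) and 0.52 ± 0.08 (adjusted p = 0.0021), while X-linked Rpl36a differed by 0.15 ± 0.06 (adjusted p = 0.0691) and 0.11 ± 0.07 (adjusted p = 0.274). Rpl36al kept both calls in the Xist-free fit, at 0.71 (adjusted p = 0.044) and 0.50 (adjusted p = 0.0437). Rpl22l1, which can stand in for Rpl22, was at 1156, 1535 and 1542 in CTL-WT and 801, 660 and 1003 in SD-WT. It was at 1194, 1372 and 1336 in CTL-AcPbKO and 774, 660 and 690 in SD-AcPbKO. Its falls were 0.79 ± 0.15 (adjusted p = 0.00471) and 0.87 ± 0.09 (adjusted p = 0.000672), and neither call was kept in the Xist-free fit, at -0.51 (adjusted p = 0.22) and -0.76 (adjusted p = 0.0858). Rpl22 had differences of -0.20 ± 0.07 (adjusted p = 0.0702, and -0.28 with an adjusted p of 0.00437 without SD-WT replicate 4) and -0.25 ± 0.07 (adjusted p = 0.03, up to 0.102 with a library left out and 0.352 in the Xist-free fit). The difference between a paralogue and its relative was not tested.

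Rps27l, a p53 target, had no shared stretch and was at 251, 293 and 310 in CTL-WT and 135, 98.8 and 209 in SD-WT. It was at 197, 313 and 296 in CTL-AcPbKO and 125, 146 and 141 in SD-AcPbKO. It fell by 1.01 ± 0.23 (adjusted p = 0.0104) and 0.93 ± 0.19 (adjusted p = 0.00745), and with a term for Xist reads the adjusted p was 0.0741 and 0.0934, and in the Xist-free fit 0.239 and 0.413. Rpl37rt, a retrotransposed copy that shares 27.3% of its stretches, mainly with Rpl37, fell from 500 ± 57.4 to 249 ± 58.6 (standard deviation, n = 3) in wild-type and from 506 ± 31.7 to 211 ± 11.6 in AcPb-/- mice, with adjusted p of 0.0968 and 0.0292 in the Xist-free fit. Rpl37 itself rose in wild-type mice by 0.25 ± 0.05 (adjusted p = 0.00781, and 0.0916 in the Xist-free fit). Rpl39, on the X chromosome, fell by 0.74 ± 0.14 and 0.82 ± 0.09 (adjusted p of 0.15 and 0.0858 in the Xist-free fit), and its testis-enriched paralogue Rpl39l had at most 8 reads in any library. Rpl7l1, Rpl7, Rps4l and Rpl3l, the last a muscle paralogue of Rpl3, passed in neither genotype. Rps4l had 379, 332 and 598 in SD-WT against 483 to 644 in CTL-WT, with an adjusted p of 0.223 that became 0.0087 without SD-WT replicate 4.

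Some core members were listed near 0, far below the other proteins of their subunits. Rpl26, of whose stretches 36.8% occur in other annotated genes, had 1 read in all 12 libraries. Rps27, with 98.4% shared, was at 31.3 to 58.9 normalized counts. Rpl34, with 31.0% shared, was at 36.9 to 66.6 and Rpl30, with 53.5%, at 5.3 to 31.0. The annotated gene that shares most stretches with each of them (Gm15772, Rps27rt, Rpl34-ps1 and Gm12191, in this order) had 0 reads in all libraries. The copies ranked next (Gm10136, Gm17241, Gm4705 and Rpl30-ps10 among them) were not listed, so their reads are not known. Rpl30 rose in AcPb-/- mice, from 10.4, 5.3 and 8.5 to 20.9, 23.6 and 20.6 (log2 fold change 1.36 ± 0.31, adjusted p = 0.013, and 0.0485 in the Xist-free fit), at levels that give it little weight. In wild-type mice Rpl30 was at 12.7, 14.1 and 24.6 undisturbed and at 31.0, 24.9 and 28.1 after SD. That difference of 0.73 was not called, and without CTL-WT replicate 3 it was 1.01 (adjusted p = 0.028, limma). Over all members, 69 share more than 10% of their 100-base stretches with other annotated transcripts. Of these, 28 of 69 passed in wild-type and 34 of 68 tested in AcPb-/- mice. Rpl10, which shares 91.6%, had a mean of 5661 normalized counts. Of the 16 that share at most 10%, 6 passed in wild-type (1 higher, 5 lower) and 10 in AcPb-/- mice (2 higher, 8 lower). Rps15a (3.03% shared) and Rps20 (5.91%) are among these 16 and were called in AcPb-/- mice only. Their annotation transcripts have 5179 and 3706 bases, against a member median of 799, so a low share of stretches does not mean that none are shared. Over all genes 25.4% and 27.4% were called, and the difference between the 2 sets of members was not tested.

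The question of whether AcPb changes these differences was put to the genotype comparisons and to the interaction. Undisturbed, 0 of 84 members differed between AcPb-/- and wild-type mice (limma, 0.0197% of all genes called), with 8 at an unadjusted p under 0.05, as were 8.53% of all genes, and 0 by edgeR and DESeq2. Groups did not overlap for 19 members (7 higher and 12 lower in AcPb-/- mice), against 14.4% of all genes (7.35% and 7.04%). After SD, 0 of 85 members differed (0.0145% of all genes called, 0.00485% higher and 0.0097% lower), with 16 at an unadjusted p under 0.05, as were 6.13% of all genes, and again 0 by edgeR and DESeq2. All 20 members whose groups did not overlap were lower in SD-AcPbKO, against 11.4% of all genes without overlap (5.35% higher and 6.01% lower). The median of the members was -0.107, and it was -0.048 without SD-AcPbKO replicate 2 and -0.051 without SD-WT replicate 4. In the interaction fit of 12 libraries, 0 of 85 members and 0% of all genes passed, also 0 members by edgeR and DESeq2, with 10 members at an unadjusted p under 0.05, as were 4% of all genes, and a lowest adjusted p of 0.986. The median of the differences (SD effect in AcPb-/- minus that in wild-type) was -0.088, and it was -0.029 without SD-AcPbKO replicate 2 and -0.032 without SD-WT replicate 4. For Rps24 the difference was 0.04 ± 0.09, for Rps6 -0.04 ± 0.08, for Rps27a 0.05 ± 0.20, and for Rpl38 -0.25 ± 0.23. The 95% interval for Rpl38 ran from -0.76 to 0.25 and that for Rps24 from -0.15 to 0.22, so that differences between the genotypes within these bounds are not excluded.

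Genes around the ribosome are given by lists, with the libraries that have Xist reads kept. Over all genes 25.4% were called in wild-type (13.2% higher, 12.2% lower) and 27.4% in AcPb-/- mice (14.1% and 13.3%). Of the ribosomal proteins whose names do not begin with Rpl or Rps, Fau fell by 0.49 ± 0.12 (adjusted p = 0.0172) and 0.63 ± 0.10 (adjusted p = 0.00322). Gnb2l1, now called Rack1, had differences of -0.02 ± 0.06 and -0.16 ± 0.06. Of 39 ribosome assembly factors, 19 were higher and 3 lower in wild-type (56.4% called), and 20 and 3 in AcPb-/- mice (59% called). Their medians were 0.21 and 0.22. Ltv1, an export factor of the 40S precursor, rose by 0.61 ± 0.08 and 0.77 ± 0.08, Dkc1, the pseudouridine synthase of ribosomal RNA, by 0.60 ± 0.09 and 0.74 ± 0.08, and Ebna1bp2, a factor of the 60S precursor, by 0.50 ± 0.06 and 0.60 ± 0.06. Eif6, which keeps new 60S subunits from joining, fell by 0.54 ± 0.11 and 0.75 ± 0.10.

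Of 20 other TOP mRNAs, 8 were higher and 1 lower in wild-type and 6 and 1 in AcPb-/- mice, with medians of 0.11 and 0.12. Hnrnpa1, a splicing factor, rose by 0.88 ± 0.11 and 1.10 ± 0.10, and Eif3f, an initiation factor subunit, fell by 0.56 ± 0.09 and 0.77 ± 0.07. Of 31 genes of RNA polymerases I and III, which make ribosomal RNA, 7 were higher and 5 lower, and 9 and 7 in AcPb-/- mice, with medians of 0.07 and 0.09. Polr3gl, a polymerase III subunit, rose by 0.55 ± 0.11 and 0.63 ± 0.07, and Maf1, its repressor, fell by 0.42 ± 0.06 and 0.52 ± 0.06. Of 25 regulators of mTORC1 and TOP translation, 4 were higher and 5 lower in wild-type and 6 and 7 in AcPb-/- mice, with medians of 0.07 and -0.03. Eif4ebp1, a translation repressor that mTORC1 inactivates, fell by 0.49 ± 0.13 and 0.64 ± 0.15, Ddit4, an inhibitor of mTORC1, fell by 0.36 ± 0.11 and 0.45 ± 0.09, and Deptor, another inhibitor, rose by 0.36 ± 0.10 and 0.58 ± 0.10. Of 78 mitochondrial ribosomal proteins, 21 were higher and 10 lower in wild-type and 23 and 14 in AcPb-/- mice, with medians of 0.02 and 0.05. Mrpl42 rose by 0.61 ± 0.09 and 0.71 ± 0.07 and Mrpl53 fell by 0.61 ± 0.11 and 0.72 ± 0.10. Shares called in wild-type and AcPb-/- mice were 45% and 35% for the TOP mRNAs and 38.7% and 51.6% for the polymerase genes. They were 36% and 52% for the regulators and 39.7% and 47.4% for the mitochondrial ribosomal proteins, beside 25.4% and 27.4% of all genes. The differences between these lists and the cytosolic ribosomal proteins or all genes were not tested.

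**Figure D5:**
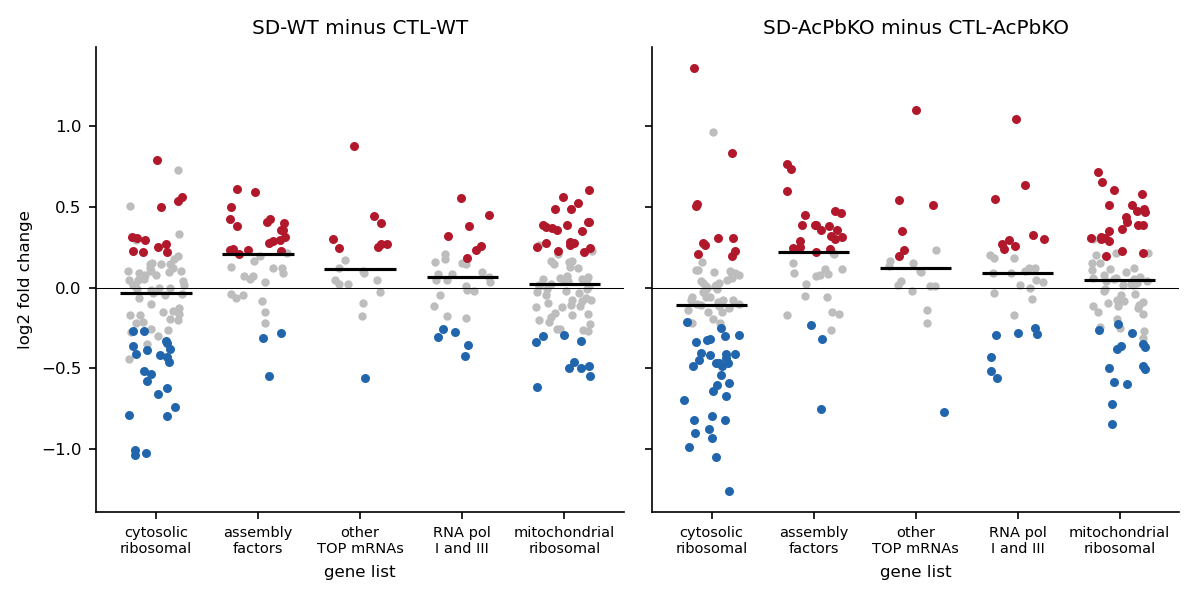
Log2 fold change after SD (vertical axis) of each gene of 5 lists (horizontal axis) in wild-type (left) and AcPb-/- mice (right). Red and blue points passed the threshold (adjusted p under 0.05) upward and downward, grey points did not, and bars are medians. The cytosolic ribosomal proteins have medians of -0.03 and -0.11 and the assembly factors 0.21 and 0.22.

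Among the members, those lower and those higher in both genotypes did not separate by subunit. Of the 22 lower in both, 10 were 60S proteins, 8 were 40S proteins, 1 was a stalk protein and 3 were paralogues. Of the 9 higher in both, 4 were 60S proteins, 4 were 40S proteins and 1 was a paralogue. Median GC content of the annotation transcript was 53.7% in members lower in both, 50.2% in those higher in both and 50.9% in those called in neither, and median length was 745, 681 and 937 bases. Members of each class lay scattered over the genome, with 14 of the 85 on chromosome 7 and 4 on the X chromosome. Within SD libraries the classes had different spreads. The mean centred log2 value of 20 abundant members lower in both was -0.30, -0.39 and 0.01 in SD-WT replicates 1, 2 and 4, and -0.53, -0.22 and -0.34 in SD-AcPbKO replicates 2, 3 and 4. For the 9 members higher in both it was 0.21, 0.25 and 0.22, and 0.12, 0.19 and 0.19. For the 32 abundant members called in neither it was 0.02, 0.01 and 0.12, and -0.15, 0.01 and -0.04. SD-WT replicate 4 thus lay above the other SD-WT libraries in the members that fell and in those called in neither. In the members that rose it lay between them. The classes were set by calls on these same libraries.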

How the data were processed

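The authors prepared poly(A)-selected stranded libraries (TruSeq Stranded mRNA), aligned reads to mm10 with HISAT2 (2.2.1 in the submitters' processing notes), counted reads per gene (HTSeq in the paper, featureCounts in the notes; strand setting and gene annotation are not given in the sources used here) and compared 2 groups at a time in DESeq2 (1.31.16). The deposited values are signal, each library's read counts divided by its DESeq2 size factor. Whole reads were recovered for 100% of 732630 values (tolerance 0.01), and the same library's reads differed between tables in 0 values. Reads on genes per library ranged from 26504840 to 71857505, and counting intervals ignore duplicates. The authors' mean, log2 fold change, standard error, statistic and p-value columns were not used, and the table of SD-AcPbKO against CTL-WT served for reads only. Of 16 labelled samples, 4 had no column and were not analysed here. They belong to SD-WT, CTL-AcPbKO and SD-AcPbKO.

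Members and lists were chosen with earlier results of these data known. As the tables hold normalized values, limma (3.58.1, R 4.3.3) with a variance trend was run on log2(normalized count + 1), on the 6 libraries of a comparison (4 residual degrees of freedom) or on 12 libraries normalized together (8), with Benjamini-Hochberg adjustment over all genes with a read. Per-library values printed are from the 12 normalized together. Intervals are 95%. Nothing in the labels says more on replicates than that they are separate mice. Named were, in each pairwise comparison, the 5 highest and 5 lowest called members with a mean of at least 10, members of known role, paralogues with their relatives and, of other lists, 2 to 4 largest changes. The near copies of members at low level, Rps29 and, where the rule did not give them, Rpl29, Rpl26 and Rpl34 were chosen with their values known.

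Alternatives were edgeR (4.0.16) and DESeq2 (1.42.0) on recovered reads, genes with a mean of at least 10, pseudocounts of 0.1 and 10, median centring, a 12-library fit, that fit with a term for or without libraries with Xist reads, loess removal of length and GC trends, thinning to the smallest total (seed 1), a replicate block and leaving out each library. The fits were run on simulated counts with known folds, in which genes varied independently at a fixed dispersion. Shifts shared by many genes of a library and the Xist difference were not simulated. Annotation came from GENCODE M21 (GRCm38, the build called mm10), where 23376 symbols of the tables (95.7%) were found, and 100-base stretches of transcripts were compared between genes. Start windows are from RefSeq (GRCm38.p6). Of other marker lists, astrocyte genes had 2 lower in wild-type and 1 in AcPb-/- mice, neuronal genes 2 and 3 higher, endothelial genes 3 higher and 2 lower in both, meningeal fibroblast genes 3 and 2 lower, striatal neuron genes 3 and 0 lower and ependymal genes 0. Of choroid plexus genes, 1 was higher in wild-type and 0 in AcPb-/- mice. Of 5 red blood cell genes 1 had reads and passed in neither. Python 3.11.15, NumPy 2.4.6, pandas 2.3.3, SciPy 1.17.1 and matplotlib 3.10.9 were used. A gene of the lists beside the members is not reported here.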

Additional observations from a re-analysis of the deposited data

How the results depend on the processing

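The counts of members past the threshold after SD stayed within 1.5 times of 34 in wild-type and of 44 in AcPb-/- mice under edgeR, DESeq2, the filter on low values, both pseudocounts, median centring, the 12-library fit, the term for Xist reads, the length and GC correction and thinning (28 to 37 and 35 to 45). Without the 4 libraries with Xist reads the counts were 7 and 9, beside 3.27% and 10% of all genes. With a library left out they ranged from 24 to 48 and from 33 to 45. In the genotype comparisons and the interaction the count was 0 under every alternative run. With the replicate number as a block, 0 members passed in either SD comparison, as did 0 of all 20417 and 20574 genes tested, and the median after SD between genotypes moved from -0.107 to -0.18. Fewer libraries or residual degrees of freedom are left in these fits, and the cause was not tested beyond that. Same-numbered libraries had deviations correlated at 0.102 and -0.0749 in wild-type and -0.141 and -0.0182 in AcPb-/- mice, 0.216 and 0.231 between genotypes after SD and -0.427 in controls. With at most 2 shared numbers a comparison these do not settle whether the numbers pair the samples, so they were taken as names only. No block could be fitted for the controls, where CTL-WT and CTL-AcPbKO share 1 number. Medians of members ranged with a library left out from -0.080 to 0.012 in wild-type SD, -0.136 to -0.086 in AcPb-/- SD, -0.028 to 0.004 in controls, -0.157 to -0.048 after SD between genotypes and -0.134 to -0.029 for the interaction. No called value of a named member changed sign under any alternative. The share of reads on members after SD over controls was 0.938 in wild-type and 0.885 in AcPb-/- mice, 0.941 and 0.888 without the 10 genes with most reads in the total, and 0.903 and 0.861 over members that share at most 10% of their stretches. Counts of a few reads, as for Rpl26, Rpl39l and Rpl30, limit what can be said of those genes. Near copies limit what can be said of the level of most others.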
